A study of Saccharomyces cerevisiae with 18 samples.

Results

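The genes described here encode proteins of the large (60S) subunit of the cytosolic ribosome of budding yeast, Saccharomyces cerevisiae. They are 60 of the 6600 genes in the count tables and were taken by identifier: cytosolic RPL genes that lie outside chromosomes V and IX. Of the 60 genes, 46 form 23 pairs in which both near-identical copies (A and B) belong to the set, 6 have their other copy outside it, and 8 have no other copy. All 60 passed the filter on low counts and were among 6131 genes tested. RNA-seq libraries came from total RNA of the strains LP085-Vc, LP104-17 and LP118, which the series describes as producers of diosgenin (DSG), a plant steroidal sapogenin. All 3 strains have the background BY4742, a haploid laboratory strain of mating type alpha. They were shaken in flasks of synthetic dextrose (SD) medium with glucose at 30°C, starting from a dilute inoculum of an overnight culture. Cells were harvested after 6 h or 24 h, with 3 libraries for each strain and time and 18 in all. Genotypes and introduced genes are not stated in the labels, nor whether a strain is 1 clone, so LP085-Vc serves here as the strain compared against and not as a stated parent. Whether libraries of a group are independent cultures is not stated either, and the p-values then reflect the spread among these libraries only, which could be technical.

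A eukaryotic ribosome joins a small subunit, which reads the mRNA, to a large subunit, which holds the peptidyl transferase centre and the tunnel through which the new protein leaves. In budding yeast the ribosomal protein genes are transcribed together at a high rate while cells grow on glucose, and they are repressed together when nutrients run low. The factor Rap1 binds upstream of most of them and recruits Fhl1 and its coactivator Ifh1. Most of these ribosomal protein genes are duplicated in yeast, and many hold an intron, which is uncommon among other yeast genes.

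Total counts per library ran from 5.12 to 7.55 in units of 1e6, the TMM scaling factors from 0.914 to 1.11, and correlations across genes between libraries of a group from 0.968 to 0.993. Levels are given as CPM, counts per 1e6 of the library's total over tested genes multiplied by its TMM factor. For the mating type markers alone, CPM use the plain library total. The 4 markers of haploid alpha cells (MFALPHA1, MFALPHA2, STE3 and SAG1) summed to 434 to 1995 CPM in every library, and none was at 0. Over time all 4 fell in LP085-Vc (median log2 change -1.89, beside 38.3% of all genes lower) and in LP104-17 (-1.38, beside 35.7%). In LP118 1 of the 4 rose and 0 fell (-0.07, beside 26.6% of all genes higher and 30.5% lower). Their sum lay at 1612 to 1848 CPM at 6 h and 434 to 493 CPM at 24 h in LP085-Vc, at 1738 to 1995 then 1194 to 1304 CPM in LP104-17, and at 1522 to 1760 then 1730 to 1939 CPM in LP118. In LP085-Vc and LP104-17, then, these markers fell over time as the large subunit genes did. The 6 markers of haploid a cells summed to 44.5 to 116 CPM, and the a pheromone genes MFA1 and MFA2 stayed at or below 7.24 CPM. The other a markers reached at most 65.5 CPM (STE6), 48.2 CPM (BAR1), 13.3 CPM (STE2) and 4.58 CPM (AGA2). Over time 3 of these 6 rose in LP085-Vc, 3 in LP104-17 and 5 in LP118, beside 37.9%, 35.2% and 26.6% of all genes higher. The part of either marker list in the results was not tested. In the RefSeq annotation of build R64, 40 of the 60 genes have an intron in the coding sequence. The length in the tables spans the introns and equals the spliced coding length for 17 of the 60, so levels per length use the spliced length.

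What the copies of a pair share limits how far their reads can be told apart, and pairs differ greatly in this. RPL1A (YPL220W) and RPL1B (YGL135W) encode the same 217 residues of the L1 stalk protein, their coding sequences are 99.4% identical, and 81.0% of the 50-base windows of each occur again in the genome. The first 120 coding bases of both, from chrXVI:135790-136443 and chrVII:254641-255294 (plus strand), show how little separates such copies, with capitals at the 2 bases that differ.
RPL1A: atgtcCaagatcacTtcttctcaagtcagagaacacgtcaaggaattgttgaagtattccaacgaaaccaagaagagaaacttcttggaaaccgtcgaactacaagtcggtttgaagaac
RPL1B: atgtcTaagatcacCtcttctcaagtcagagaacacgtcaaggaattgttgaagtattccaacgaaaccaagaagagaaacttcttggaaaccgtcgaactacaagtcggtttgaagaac
The proteins of RPL15A (YLR029C) (chrXII:201976-202590, minus strand) and RPL15B (YMR121C) (chrXIII:509734-510348, minus strand) differ at 2 of 204 residues, the coding sequences are 93.2% identical, and 11.8% of windows are repeated. Their first 120 coding bases are shown because this pair had the widest range of copy ratios among pairs called, with capitals at the 6 bases that differ.
RPL15A: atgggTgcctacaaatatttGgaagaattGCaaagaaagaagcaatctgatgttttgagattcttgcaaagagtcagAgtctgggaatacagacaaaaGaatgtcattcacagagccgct
RPL15B: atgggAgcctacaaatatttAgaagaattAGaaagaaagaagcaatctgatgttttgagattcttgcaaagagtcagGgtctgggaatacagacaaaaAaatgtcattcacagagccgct

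Stretches of 300 bases that begin 450 bases before the start codon are shown, 5′ to 3′ on the strand of the gene, for the 2 pairs with the smallest p for a change of copy ratio. They come from RefSeq build R64, at chrXII:202741-203040 (minus strand) for RPL15A, chrXIII:510499-510798 (minus strand) for RPL15B, chrXI:431456-431755 (plus strand) for RPL14A (YKL006W) and chrVIII:103827-104126 (plus strand) for RPL14B (YHL001W). Capitals mark matches on either strand to the letters searched for Rap1 (ACCCNNACA), Abf1 (TCA, any 6 bases, then ACG) and Reb1 (TTACCCG).
RPL15A: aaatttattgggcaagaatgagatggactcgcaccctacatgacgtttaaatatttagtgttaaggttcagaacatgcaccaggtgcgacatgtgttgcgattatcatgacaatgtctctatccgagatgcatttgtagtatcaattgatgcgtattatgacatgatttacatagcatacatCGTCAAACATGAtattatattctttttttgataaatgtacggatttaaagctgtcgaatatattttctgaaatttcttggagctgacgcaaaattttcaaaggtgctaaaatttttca
RPL15B: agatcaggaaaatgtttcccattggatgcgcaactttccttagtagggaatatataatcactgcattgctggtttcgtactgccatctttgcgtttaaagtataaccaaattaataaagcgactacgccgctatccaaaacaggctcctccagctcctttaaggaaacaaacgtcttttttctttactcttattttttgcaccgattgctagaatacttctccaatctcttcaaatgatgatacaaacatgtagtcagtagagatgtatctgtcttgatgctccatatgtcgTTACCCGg
RPL14A: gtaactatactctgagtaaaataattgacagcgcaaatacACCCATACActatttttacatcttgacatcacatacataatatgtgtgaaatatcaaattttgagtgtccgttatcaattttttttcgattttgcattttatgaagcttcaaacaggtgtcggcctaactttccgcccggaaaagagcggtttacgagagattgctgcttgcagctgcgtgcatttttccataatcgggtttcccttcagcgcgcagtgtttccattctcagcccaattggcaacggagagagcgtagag
RPL14B: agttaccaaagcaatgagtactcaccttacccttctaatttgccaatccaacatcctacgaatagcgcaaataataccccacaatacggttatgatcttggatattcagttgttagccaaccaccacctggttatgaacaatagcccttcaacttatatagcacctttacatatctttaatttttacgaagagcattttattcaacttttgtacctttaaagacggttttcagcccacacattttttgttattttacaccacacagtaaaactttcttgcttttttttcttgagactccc
RPL15A holds a match to the Abf1 letters 257 bases before the start codon, RPL15B a match to the Reb1 letters at 152 bases, RPL14A a match to the Rap1 letters at 402 bases, and RPL14B none of them. Within 500 bases upstream, the Rap1 letters occurred in 27 of the 60 genes (45%), against 5.50% of 5896 genes of the genome. Abf1 letters occurred in 16.7% of the 60 and in 22.8% of all genes. Reb1 letters, which can overlap a Rap1 match, occurred in 5% and 10.3%, and a run of 10 T in 35% and 24%. The 30 Rap1 matches in the 60 genes lay 154 to 481 bases before the start codon, with a median of 293. These are matches of letters and not measured binding.

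The share of all gene counts that fell in the 60 genes gave a first view of the groups. At 6 h the 3 libraries of LP085-Vc held 2.10, 2.58 and 2.39%, those of LP104-17 2.72, 3.23 and 2.73%, and those of LP118 5.21, 5.79 and 5.69%. By 24 h LP085-Vc held 0.351, 0.353 and 0.311%, LP104-17 held 1.17, 1.48 and 1.34%, and LP118 held 4.29, 3.53 and 3.58%. No libraries of different groups overlapped, LP118 stood highest at both times, and LP085-Vc at 24 h stood lowest. In bulk RNA, fewer cells of a type and less RNA per cell cannot be told apart, and a share of counts gives no amount per cell.

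**Figure D1:**
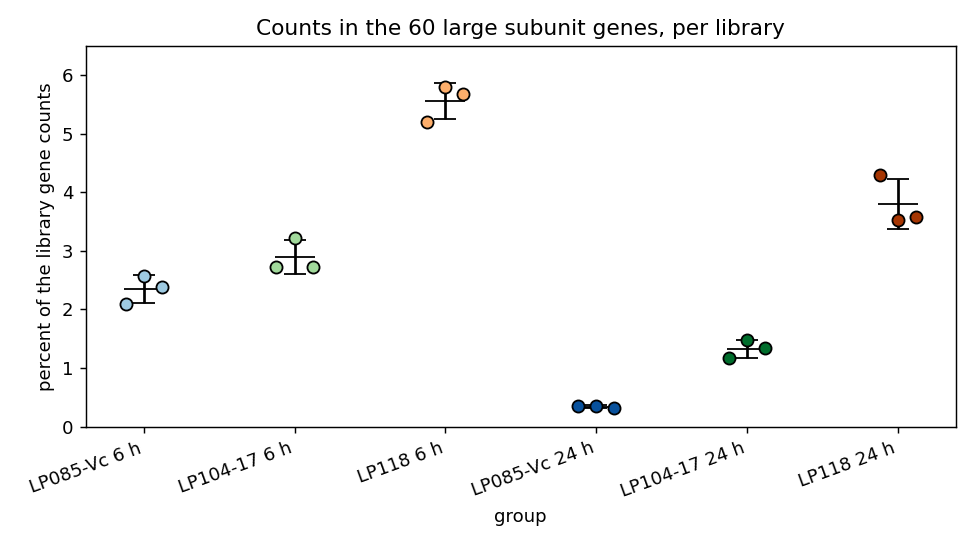
Percent of each library's gene counts in the 60 large subunit genes, by strain and time. Points are libraries (3 per group) and bars show mean ± SD; LP085-Vc at 24 h lies at 0.338 ± 0.0238% and LP118 at 6 h at 5.56 ± 0.311%.

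LP118 carried more of these transcripts than both other strains at 6 h. Against LP085-Vc, 57 of the 60 genes were higher and 0 lower (edgeR quasi-likelihood test, adjusted p below 0.05), where 32.2% of all tested genes were called higher and 33.8% lower. The median log2 fold change was 1.38, against -0.04 for all genes. RPL9A (YGL147C) had the highest fold change, with 273, 351 and 299.8 CPM in LP085-Vc and 967, 1357 and 1232 CPM in LP118, groups far apart (log2 fold change ± SE 1.95 ± 0.15, adjusted p = 9.15e-10). RPL22B (YFL034C-A), which encodes a protein near the tunnel exit, read 51.3, 56.1 and 55.3 CPM in LP085-Vc and 166, 209 and 216 CPM in LP118 (1.86 ± 0.10, adjusted p = 2.20e-12). The 3 genes not called were RPL15B, RPL22A and RPL38. Against LP104-17, 55 genes were higher in LP118 and 0 lower, with 28.7% of all genes called higher and 29.8% lower, and the median was 1.10. Both comparisons share the LP118 libraries.

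Between LP104-17 and LP085-Vc few genes were called at 6 h. Higher in LP104-17 were 7 of the 60 genes, and 0 were lower, beside 5.79% of all genes called higher and 5.76% lower. With 11.5% of all genes called in either direction, the total of 7 is near the background, though all 7 were higher. Of the 60 fold changes, 58 were above 0, with a median of 0.26. The 7 were RPL6B, RPL8A, RPL8B, RPL16B, RPL22B, RPL23A and RPL31B. RPL23A (YBL087C), which encodes a protein of a bridge to the small subunit, had the highest fold change, with 263, 202 and 176 CPM in LP085-Vc and 311, 269 and 337 CPM in LP104-17 (0.52 ± 0.15, adjusted p = 0.0314). That call was lost without any of 4 libraries, LP085-Vc replicate 2 or 3 or LP104-17 replicate 1 or 3. Next came RPL7A (YGL076C), not called, with 125, 129.9 and 129 and 176, 158 and 201 CPM (0.48 ± 0.18, adjusted p = 0.0896). The number called moved with single libraries. It was 2 without LP085-Vc replicate 2 (7.88% of all genes called) and 3 without LP104-17 replicate 3 (8.28%). It was 4 without LP085-Vc replicate 3 (8.43%) or LP104-17 replicate 1 (8.01%), and 11 without LP104-17 replicate 2 (19.6%). Of those 11, 10 were higher and 1 lower, where 9.88% of all genes were called higher and 9.72% lower, so that count is near the background. Fold changes also followed gene length. Genes with at most 711 spliced coding bases, the shortest 25% of 5698 and including 51 of the 60, had a median of -0.08, and the longest 25% had 0.11; for LP118 against LP085-Vc at 6 h these medians were -0.21 and 0.24. With that trend removed from each library, 33 of the 60 were called higher in LP104-17 than in LP085-Vc and 0 lower, beside 8.09% of all genes higher and 8.5% lower.

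By 24 h the strains were ordered for nearly every gene. LP104-17 exceeded LP085-Vc in 58 genes and was lower in 0 (25.1% of all genes higher, 27.4% lower), with a median log2 fold change of 1.88. LP118 exceeded LP085-Vc in 59 genes and was lower in 0 (38.5% higher, 39.2% lower), with a median of 3.29. LP118 also exceeded LP104-17 in 59 genes and was lower in 0 (35% higher, 33.6% lower), with a median of 1.51. Each pair of these comparisons shares libraries, and RPL15B was called in none. RPL22B (YFL034C-A) is given for LP118 over LP085-Vc as the highest fold change among rows as deposited, other than rows of few counts, from 7.26, 6.63 and 7.31 CPM to 213, 217 and 203 CPM (4.90 ± 0.12, adjusted p = 2.36e-17). Between LP118 and LP104-17 the gene chosen in this way was RPL8B (YLL045C), with 168, 184 and 152 CPM in LP104-17 and 1003, 812 and 839.6 CPM in LP118 (2.40 ± 0.11, adjusted p = 4.33e-13). In both cases all 3 libraries of LP118 lay far above the others. With an overlapping row added (described further on), RPL22A exceeded both values, at 5.70 ± 0.57 over LP085-Vc and 2.996 ± 0.46 over LP104-17, and RPL8B was 4.94 ± 0.16 over LP085-Vc.

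From 6 h to 24 h the transcripts fell in all 3 strains, by unequal amounts. In LP085-Vc 59 of the 60 fell and 0 rose (38.3% of all genes lower, 37.9% higher), with a median log2 change of -2.68. In LP104-17 54 fell and 1 rose (35.7% lower, 35.2% higher), with a median of -1.05. In LP118 51 fell and 1 rose (30.5% lower, 26.6% higher), with a median of -0.69, and 44 were called in all without replicate 2 of LP118 at 24 h. The gene called higher was RPL7B in LP104-17 and in LP118. RPL18B (YNL301C) had the largest fall in both: it read 127, 122 and 108 then 19.8, 35.1 and 23.3 CPM in LP104-17 (-2.18 ± 0.17, adjusted p = 5.84e-10) and 194, 223 and 224 then 83.9, 79.4 and 79.5 CPM in LP118 (-1.40 ± 0.15, adjusted p = 2.58e-07). No libraries of the 2 times overlapped in either strain.

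**Figure D2:**
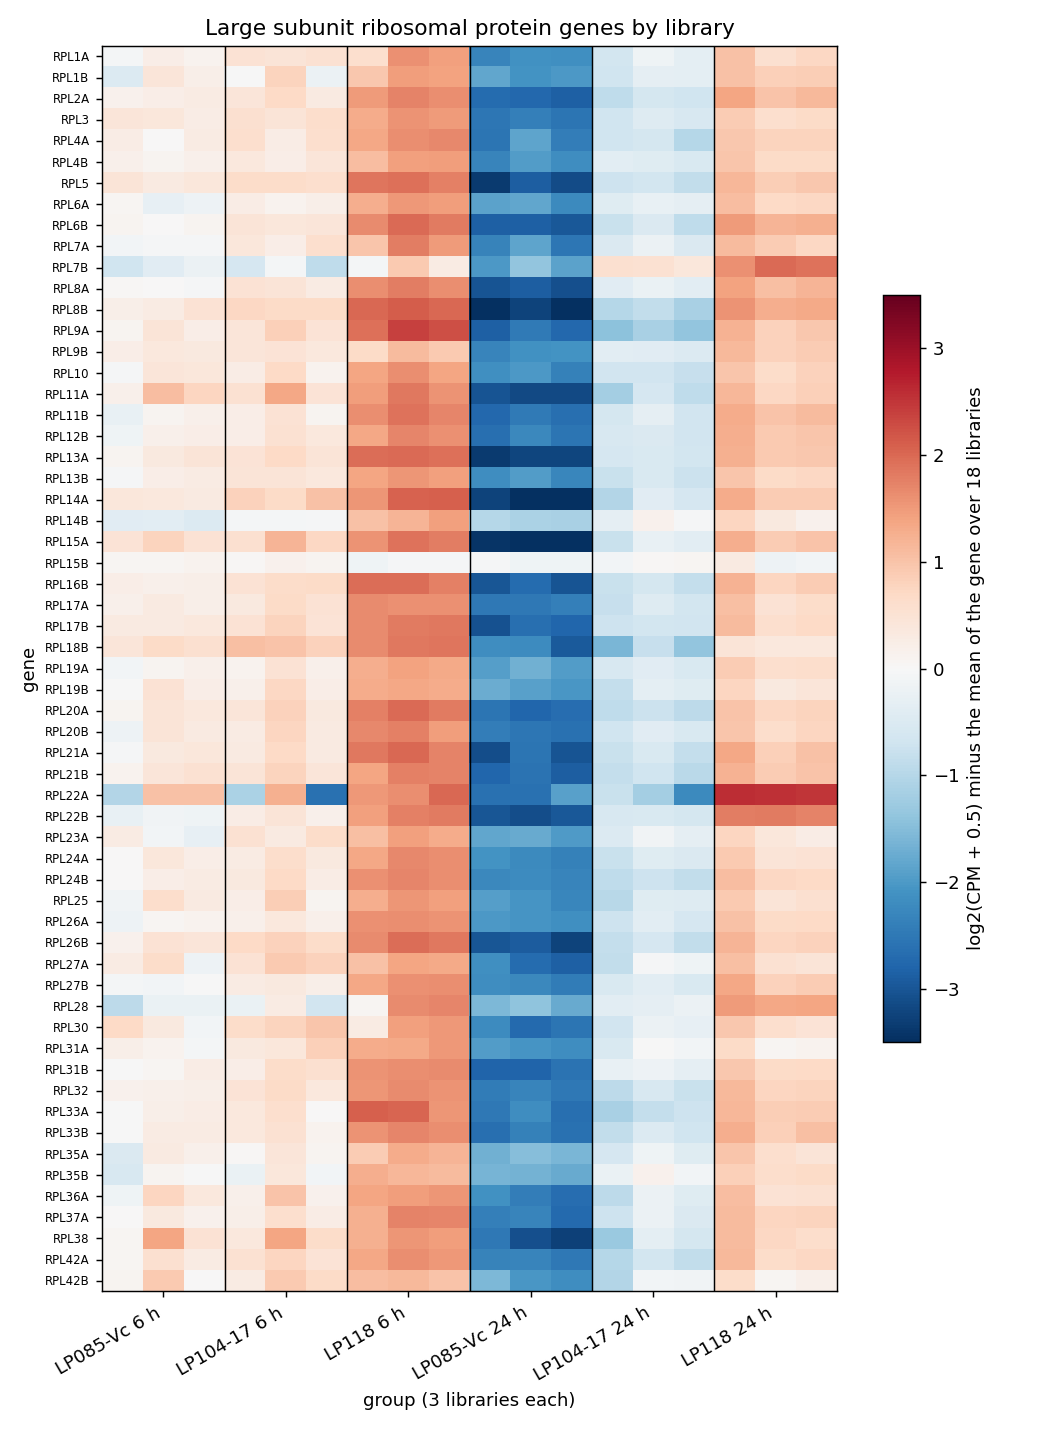
Level of 59 of the 60 genes in each of 18 libraries, as log2(CPM + 0.5) minus the mean of that gene, red above and blue below the mean, with lines between groups. Most rows are red in LP118 and blue in LP085-Vc at 24 h, where the median change from 6 h was -2.68, and RPL15B stays pale throughout.

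The unequal falls were tested as differences between strains. Against LP085-Vc, the change in LP104-17 was higher (a smaller fall) for 57 genes and lower for 0, with 17.8% of all genes higher and 15.3% lower, and a median difference of 1.58. In LP118 it was higher for 58 and lower for 0 (30.5% higher, 29.6% lower), with a median of 1.97. LP118 and LP104-17 differed in 24 genes, 23 higher and 1 lower in LP118 (24.5% higher, 25.3% lower), with a median of 0.38. These tests share libraries. The count of 24 was 16 without replicate 1 of LP118 at 24 h, which was the highest of its 3 libraries in most of the 60 genes. Among rows as deposited, RPL8B had the largest called difference there (1.05 ± 0.15, adjusted p = 9.54e-06), and RPL14B was the gene called in the other direction (-0.80 ± 0.19, adjusted p = 0.00197). The RPL22A row, of few counts, was at 2.68 ± 1.11 and not called (adjusted p = 0.0523). With an overlapping row added (described further on), RPL22A was called at 1.57 ± 0.61 (adjusted p = 0.0399), and RPL8B was at 1.15 ± 0.19. RPL35B (YDL136W) had the second lowest value and was not called (-0.37 ± 0.22, adjusted p = 0.175); it read 73.1, 114 and 79.7 then 72.6, 95.2 and 80.6 CPM in LP104-17 and 208, 194 and 184 then 154, 131 and 136 CPM in LP118.

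**Figure D3:**
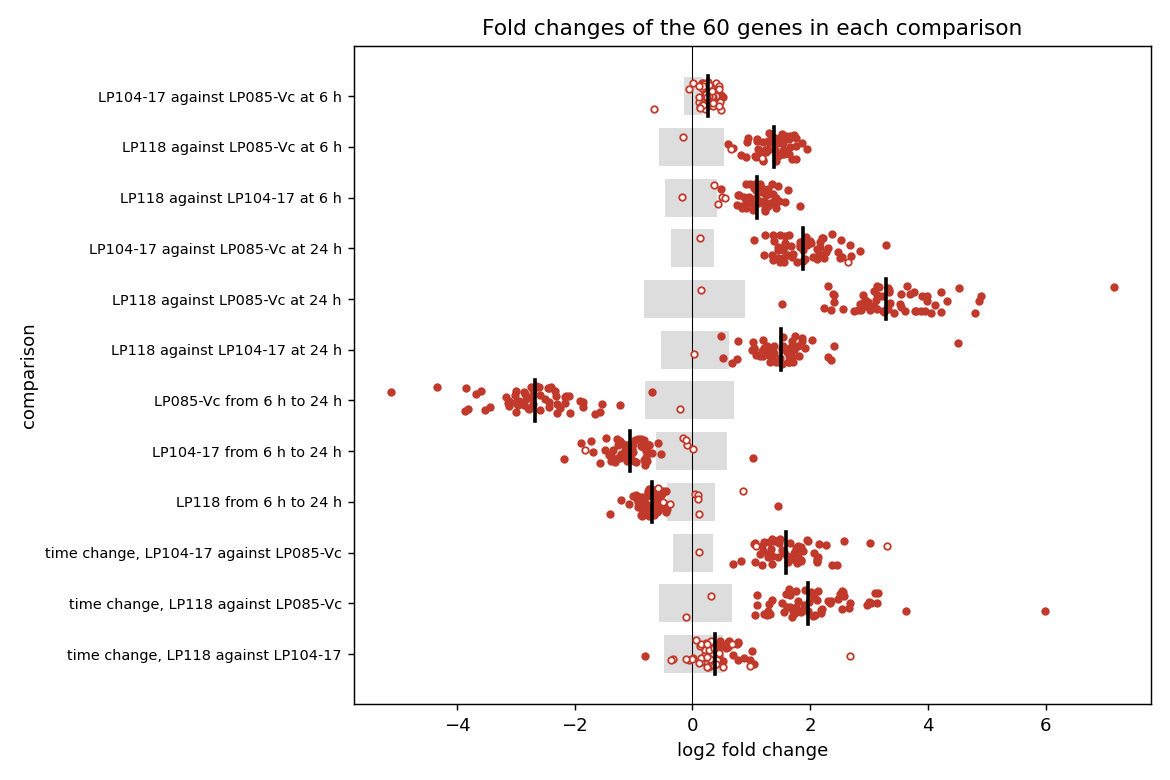
Log2 fold changes of the 60 genes in the 12 comparisons, 1 point per gene, filled where called (adjusted p below 0.05) and open where not. Black bars are medians of the 60 and grey boxes the middle 50% of all tested genes; the medians run from -2.68 (LP085-Vc from 6 h to 24 h) to 3.29 (LP118 against LP085-Vc at 24 h).

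The genes were then read by the place of their proteins in the subunit, beginning with those that bind the 5S rRNA. RPL5 and RPL11 form a particle with that RNA which enters the growing subunit as a unit. RPL5 (YPL131W, chrXVI:303121-304014) read 1249, 1134 and 1199 then 87.8, 122 and 103 CPM in LP085-Vc, 1420.4, 1424 and 1357 then 546, 576 and 500.2 CPM in LP104-17, and 3335, 3445 and 3095 then 2042, 1654 and 1753 CPM in LP118. The times did not overlap in any strain, and the log2 change was -3.52 ± 0.12, -1.37 ± 0.10 and -0.86 ± 0.10 in that order. RPL11A (YPR102C) changed by -3.86 ± 0.26, -1.72 ± 0.23 and -0.72 ± 0.22, and RPL11B (YGR085C) by -2.66 ± 0.15, -0.82 ± 0.14 and -0.61 ± 0.13, so all 3 genes fell in every strain.

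Near the peptidyl transferase centre lie the proteins of RPL2A, RPL3 and RPL10, and each of these genes fell over time in all 3 strains and was higher in LP118 than in both other strains at both times. RPL3 (YOR063W, chrXV:444686-445849), which has no other copy, read 2524, 2437 and 2241 then 324, 354 and 314 CPM in LP085-Vc, 2736, 2552 and 2845 then 1141, 1376 and 1259.5 CPM in LP104-17, and 4569, 5572 and 5267 then 3474, 2829 and 2979 CPM in LP118. At 24 h the 3 strains were fully apart (1.93 ± 0.10, adjusted p = 1.04e-11 for LP104-17 and 3.22 ± 0.11, adjusted p = 1.02e-15 for LP118, against LP085-Vc). RPL10 (YLR075W, chrXII:282927-283592), whose protein joins the subunit late, in the cytoplasm, read 652, 905 and 892 then 152, 167 and 131 CPM in LP085-Vc, 814, 1104 and 732 then 424, 422 and 385 CPM in LP104-17, and 1759, 2078 and 1757 then 1329, 1045 and 1189 CPM in LP118. Its changes over time were -2.44 ± 0.16, adjusted p = 2.89e-11, -1.11 ± 0.15, adjusted p = 1.87e-06 and -0.65 ± 0.15, adjusted p = 9.02e-04.

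The tunnel and its rim account for 15 genes. All 15 fell in LP085-Vc (median -2.40), 13 fell in LP104-17 (median -0.88) and 13 in LP118 (median -0.76). This is like the full set, of which 59, 54 and 51 of the 60 genes fell, beside 38.3%, 35.7% and 30.5% of all genes lower. RPL25 (YOL127W, chrXV:80348-81190), whose protein is a docking site for factors that meet the emerging chain, read 600.4, 1009 and 824 then 171, 157 and 134 CPM in LP085-Vc, 772, 1191 and 708 then 332, 485 and 476 CPM in LP104-17, and 1574, 1914 and 1766 then 1249.6, 899 and 964 CPM in LP118. Its changes were -2.40 ± 0.21, adjusted p = 4.30e-09, -1.05 ± 0.20, adjusted p = 1.39e-04 and -0.76 ± 0.20, adjusted p = 0.00347, with no overlap between times.

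The 3 bridge genes, RPL23A, RPL24A and RPL24B, fell in all 3 strains, with medians of -2.44, -0.99 and -0.80. RPL12B (YDR418W), at the base of the flexible acidic stalk that binds elongation factors, fell too (-2.59 ± 0.14, -0.97 ± 0.13 and -0.51 ± 0.13). Of the L1 stalk genes, RPL1A fell in all 3 strains and RPL1B in LP085-Vc and LP104-17, with -0.38 ± 0.22, adjusted p = 0.157 in LP118. Reads of RPL1A and RPL1B are uncertain between the copies, since most of their windows are repeated.

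RPL30 (YGL030W, chrVII:439091-439638), whose protein represses the splicing of its own transcript, has no other copy and spread widely between libraries of a group. It read 762, 598 and 433 then 102, 70.4 and 79.0 CPM in LP085-Vc, 736, 809 and 907 then 296, 406 and 382 CPM in LP104-17, and 574, 1264 and 1339.6 then 892, 706 and 651 CPM in LP118. Replicate 1 of LP118 at 6 h lay far below the other 2 libraries and below all 3 at 24 h. The change over time in LP118 was not called (-0.50 ± 0.24, adjusted p = 0.0903), while that in LP085-Vc was (-2.83 ± 0.27, adjusted p = 1.01e-08). Per kb of spliced coding sequence, RPL38 (YLR325C) had the highest group mean of the 60 in 5 of the 6 groups. At 6 h it was 3522 ± 1708 CPM per kb (mean ± SD, n = 3) in LP085-Vc and 5551 ± 592 CPM per kb in LP118. RPL42B (YHR141C) led in LP085-Vc at 24 h with 375 ± 84.9 CPM per kb, beside 359 ± 43.3 CPM per kb for RPL25. Of the windows of RPL42B 47.8% are repeated.

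Genes with and without an intron in the coding sequence had similar medians. From 6 h to 24 h these were -2.73 for the 40 with such an intron and -2.60 for the 20 without in LP085-Vc. The same medians were -1.04 and -1.11 in LP104-17 and -0.72 and -0.65 in LP118. The 10 genes with at least 50% of windows repeated had a median of -2.24 in LP085-Vc and the other 50 genes -2.76. No test was made between these classes.

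Some rows may hold only part of the reads of their gene, though the source of the reads in overlapping rows was not tested. The tables list further identifiers, with no entry in the RefSeq annotation, whose listed length matches an open reading frame across a large subunit gene, and whether counting used strand is not stated. For RPL22A (YLR061W) such a frame covers 96.7% of the coding sequence, and the RPL22A row holds 2.82% of the counts of both rows. For RPL28 (YGL103W) these values are 89.1% and 5.97%, and for RPL7B (YPL198W) 49.0% and 18.1%. RPL33A, RPL12B, RPL10 and RPL8B are covered over 88.0, 62.5, 61.3 and 53.7% and hold 68.6, 72.0, 79.0 and 91.4% of the counts. Rows of RPL22A, RPL28 and RPL7B are therefore given beside the sum with the overlapping row.

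RPL28, which has no other copy, read 9.37, 15.4 and 15.4 then 5.72, 6.48 and 4.98 CPM in its own row in LP085-Vc, 15.3, 22.4 and 11.2 then 13.8, 14.6 and 15.8 CPM in LP104-17, and 19.2, 57.8 and 60.1 then 51.5, 47.2 and 47.6 CPM in LP118. The row changed by -1.23 ± 0.37, -0.15 ± 0.32 and 0.09 ± 0.29, of which the first was called. The sum was 306 ± 55.8 then 77.5 ± 6.39 CPM (mean ± SD, n = 3) in LP085-Vc, 439 ± 75.6 then 263 ± 33.3 CPM in LP104-17, and 789 ± 145 then 576 ± 31.8 CPM in LP118. Summed, RPL28 fell in all 3 strains (-1.98 ± 0.16, -0.74 ± 0.15 and -0.46 ± 0.15), like most of the 60 genes.

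RPL22A held 6, 38 and 44 counts at 6 h and 0, 0 and 2 at 24 h in LP085-Vc, 5, 50 and 0 then 8, 6 and 1 in LP104-17, and 41, 43 and 61 then 117, 127 and 106 in LP118, so no fold is given from its row against LP085-Vc at 24 h. Its sum was 198 ± 103 then 6.78 ± 1.11 CPM in LP085-Vc, 178 ± 157 then 44.2 ± 6.54 CPM in LP104-17, and 482 ± 60.1 then 353 ± 11.4 CPM in LP118. Summed, it fell in LP085-Vc (-4.86 ± 0.56, adjusted p = 1.84e-07) and in LP104-17 (-2.01 ± 0.45, adjusted p = 6.13e-04). The change in LP118 was not called (-0.45 ± 0.42, adjusted p = 0.378).

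RPL7B went against the other genes in LP104-17 and LP118. Its own row read 3.78, 4.82 and 5.58 then 1.24, 2.21 and 1.40 CPM in LP085-Vc, 4.15, 6.16 and 3.30 then 9.81, 9.72 and 8.69 CPM in LP104-17, and 6.19, 12.6 and 8.04 then 20.9, 27.1 and 25.4 CPM in LP118. Levels at 24 h were thus below those at 6 h in LP085-Vc and above them in the other strains, without overlap (-1.54 ± 0.34, adjusted p = 4.89e-04; 1.04 ± 0.28, adjusted p = 0.00282; 1.45 ± 0.26, adjusted p = 8.91e-05). With the overlapping row added, the changes were -2.10 ± 0.27, adjusted p = 9.52e-07, 0.55 ± 0.21, adjusted p = 0.0291 and 0.49 ± 0.19, adjusted p = 0.0393. RPL7A, its other copy, read 125, 129.9 and 129 then 26.1, 36.8 and 22.7 CPM, 176, 158 and 201 then 93.5, 117 and 93.8 CPM, and 262, 465 and 379 then 287, 247 and 222 CPM in the same strains, and fell in all of them, although its libraries overlapped between the times in LP118. Of the windows of both copies 56.9% are repeated, so reads can belong to either.

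Whether the copies of a gene kept their proportion was tested with limma on the log2 ratio of their counts per spliced coding length (0.5 added to each count), over 180 duplicated pairs of the genome. The ratio differed among the 6 groups in 20 of the 23 large subunit pairs, or 87.0%, beside 91.7% of all pairs, so the share is near the background. The range of the group means had a median of 1.01 on the log2 scale in the 23 pairs and 2.01 in all pairs. In LP104-17 against LP085-Vc at 6 h no large subunit pair was called by limma, beside 17.2% of all pairs. LP118 differed from LP085-Vc at 6 h in 7 pairs, 5 toward copy A (64.4% of all pairs called), and likewise from LP104-17 in 7, 5 toward A (60%).

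At 24 h the ratio differed in 12 pairs between LP104-17 and LP085-Vc (4 toward A, 58.3% of all pairs called), in 13 between LP118 and LP085-Vc (6 toward A, 75%) and in 11 between LP118 and LP104-17 (6 toward A, 70%). Over time it moved in 13 pairs in LP085-Vc (5 toward A, 78.3%), 13 in LP104-17 (5 toward A, 71.7%) and 6 in LP118 (1 toward A, 55.6%). The change over time itself differed in 9 pairs between LP104-17 and LP085-Vc (44.4%), 13 between LP118 and LP085-Vc (68.9%) and 8 between LP118 and LP104-17 (59.4%). Large subunit pairs were thus called no more often than duplicated genes at large.

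**Figure D4:**
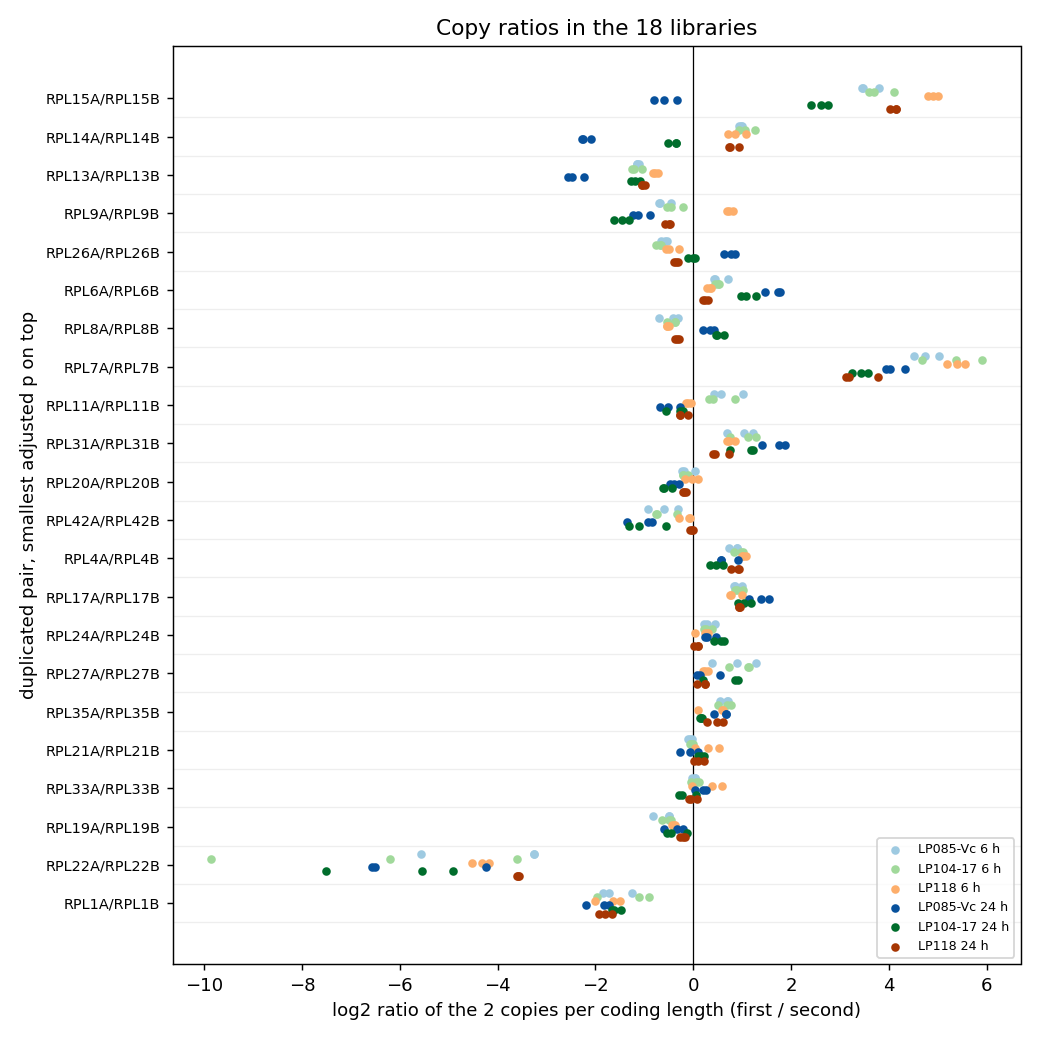
Log2 ratio of the 2 copies in 22 of the 23 pairs (first over second, per spliced coding length), 1 point per library and 1 colour per group, ordered by the adjusted p of the F test. RPL15A/RPL15B spans group means from 4.90 (LP118 at 6 h) to -0.57 (LP085-Vc at 24 h), while RPL1A/RPL1B lies between -1.91 and -1.33; the RPL22A row held few counts.

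RPL15 encodes a protein set deep in the rRNA of the subunit. RPL15A read 939.7, 1169.9 and 966 then 62.7, 48.0 and 41.5 CPM in LP085-Vc, 1004, 1553 and 1123 then 396, 564 and 522 CPM in LP104-17, and 2036, 2546 and 2332 then 1626, 1253 and 1350.4 CPM in LP118. RPL15B read 84.5, 84.4 and 89.0 then 78.7, 72.5 and 72.5 CPM, 83.5, 90.5 and 86.9 then 75.1, 84.0 and 85.4 CPM, and 72.8, 79.4 and 78.1 then 101, 71.3 and 76.2 CPM in the same strains. At 24 h the strains overlapped for RPL15B, and at 6 h LP118 lay just below the others, but it was called in none of the 12 comparisons by the count test (on log2(FPKM + 1) it was called in 5 of the 8 comparisons recomputed for it, by at most 0.55); RPL15A was far apart between strains at 24 h. Over time in LP085-Vc, RPL15A changed by -4.34 ± 0.20, adjusted p = 1.69e-13 and RPL15B by -0.21 ± 0.10, adjusted p = 0.0772. The log2 ratio of A to B was 3.57 ± 0.19 (SD, n = 3) then -0.57 ± 0.24 in LP085-Vc, 3.79 ± 0.27 then 2.58 ± 0.18 in LP104-17, and 4.90 ± 0.10 then 4.10 ± 0.07 in LP118. It fell in every strain, by 4.14 ± 0.15, 1.21 ± 0.15 and 0.80 ± 0.15, and in LP085-Vc at 24 h RPL15B was the major copy.

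RPL14A and RPL14B, whose proteins differ at 1 of 138 residues and of which 42.1% of windows are repeated, also changed places. RPL14A read 170.0, 166 and 161 then 13.1, 10.8 and 10.4 CPM in LP085-Vc, 224, 206 and 261 then 63.4, 97.6 and 85.6 CPM in LP104-17, and 374, 538 and 553 then 317, 240.5 and 238 CPM in LP118. RPL14B read 86.0, 87.0 and 81.1 then 56.1, 51.7 and 50.7 CPM, 107, 108 and 109 then 90.9, 125 and 109 CPM, and 230.3, 256 and 307 then 191, 142 and 124 CPM. RPL14A was thus the higher copy in every library at 6 h and in LP118 at 24 h, and RPL14B in every library of LP085-Vc and LP104-17 at 24 h. The log2 ratio of A to B changed over time by -3.17 ± 0.10, adjusted p = 2.74e-13 in LP085-Vc and by -1.49 ± 0.10, adjusted p = 4.15e-09 in LP104-17. In LP118 it was not called (-0.07 ± 0.10, adjusted p = 0.638), and the difference between LP118 and LP104-17 in this change was 1.43 ± 0.15, adjusted p = 9.27e-07. RPL14B itself fell in LP085-Vc (-0.68 ± 0.14, adjusted p = 2.87e-04) and was not called in LP104-17 (0.00 ± 0.14, adjusted p = 0.977).

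For RPL13, the B copy was the major one in all groups. RPL13A (YDL082W) read 273, 322 and 345 then 24.3, 27.0 and 26.9 CPM in LP085-Vc, 355, 409 and 345 then 169, 175 and 161 CPM in LP104-17, and 984, 1006 and 964 then 606, 478 and 490.1 CPM in LP118. RPL13B (YMR142C) read 604, 719 and 749 then 136, 159 and 128 CPM, 844, 843 and 795 then 359.8, 423 and 368 CPM, and 1613, 1793 and 1669 then 1207, 987 and 1021 CPM. The proportion of copy A was lowest in LP085-Vc at 24 h, where the log2 ratio was -2.43 ± 0.17 after -1.14 ± 0.02 at 6 h. The ratio changed over time by -1.29 ± 0.08, adjusted p = 1.21e-09 in LP085-Vc and -0.25 ± 0.08, adjusted p = 0.0175 in LP118, where the call was lost without replicate 1 at 6 h or replicate 3 at 24 h, and was not called in LP104-17 (-0.02 ± 0.08, adjusted p = 0.870).

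For RPL26, at the rim of the tunnel, the B copy fell more. RPL26A (YLR344W) read 209.9, 250.2 and 260.3 then 58.9, 56.9 and 53.3 CPM in LP085-Vc, 269, 309.9 and 270.2 then 146, 185 and 159 CPM in LP104-17, and 719.8, 743 and 717 then 484, 383 and 387 CPM in LP118. RPL26B (YGR034W) read 314, 398 and 378 then 34.5, 36.8 and 29.4 CPM, 457, 490.4 and 435 then 157, 186 and 154 CPM, and 885, 1097 and 1005 then 638, 473 and 492 CPM. RPL26B was the higher copy in every library at 6 h, and RPL26A in every library of LP085-Vc at 24 h. The ratio of A to B rose by 1.35 ± 0.08, adjusted p = 4.12e-10 in LP085-Vc and by 0.68 ± 0.08, adjusted p = 1.82e-06 in LP104-17, and was not called in LP118 (0.10 ± 0.08, adjusted p = 0.325).

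RPL9 set LP118 at 6 h apart from the other groups. RPL9A (YGL147C) read 273, 351 and 299.8 then 34.6, 46.0 and 37.3 CPM in LP085-Vc, 346, 453 and 354 then 94.9, 116 and 98.6 CPM in LP104-17, and 967, 1357 and 1232 then 596, 444 and 491 CPM in LP118. RPL9B (YNL067W) read 442, 483 and 478 then 75.6, 85.5 and 87.2 CPM, 503, 525 and 488 then 293, 286 and 269 CPM, and 602, 815 and 706 then 823, 663 and 697 CPM. RPL9A exceeded RPL9B in the 3 libraries of LP118 at 6 h, and RPL9B exceeded RPL9A in the 15 others. LP118 against LP085-Vc at 6 h gave 1.95 ± 0.15 for RPL9A and 0.60 ± 0.10, adjusted p = 4.74e-05 for RPL9B. The log2 ratio of A to B was lower at 24 h than at 6 h in all 3 strains. It was -0.61 ± 0.13 (SD, n = 3) then -1.08 ± 0.17 in LP085-Vc, -0.40 ± 0.17 then -1.46 ± 0.16 in LP104-17, and 0.74 ± 0.06 then -0.52 ± 0.06 in LP118. In LP118 the ratio fell over time by 1.26 ± 0.11, as RPL9A fell (-1.22 ± 0.15, adjusted p = 1.17e-06) and RPL9B did not pass the test (0.04 ± 0.10, adjusted p = 0.761).

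In the other pairs called, the range of group means ran from 0.375 (RPL21) to 2.01 (RPL7). The pairs not called were RPL19 (adjusted p = 0.0947), RPL22 (0.145) and RPL1 (0.285), and with the overlapping row added to RPL22A the RPL22 pair was called (adjusted p = 0.0155). Repeated windows made up 81.0% in RPL1, 80.6% in RPL35, 72.7% in RPL4, 60.9% in RPL11 and 56.9% in RPL7, and how reads were assigned in these pairs was not tested.

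Other genes of ribosome formation were read from lists made with earlier results in view. Small subunit protein genes moved with those of the large subunit: of 57, over time 57 fell in LP085-Vc, 55 fell and 1 rose in LP104-17, and 51 fell in LP118, with medians of -2.56, -1.06 and -0.71, beside 38.3%, 35.7% and 30.5% of all genes lower. The 5 acidic stalk genes fell in all 3 strains (medians -3.06, -1.55 and -0.62).

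The 42 assembly factors of the 60S subunit had a different order. In LP085-Vc 26 fell and 7 rose (median -0.47), beside 38.3% of all genes lower and 37.9% higher. In LP104-17 33 rose and 1 fell (median 0.77), beside 35.2% higher and 35.7% lower. In LP118 37 fell and 0 rose (median -0.54), beside 30.5% lower and 26.6% higher. In LP104-17, then, 54 large subunit genes fell over time while 33 assembly factor genes rose. NMD3, the export adaptor of the 60S subunit, read 47.7 ± 1.20 then 36.4 ± 1.12 CPM (mean ± SD, n = 3) in LP085-Vc, 59.6 ± 2.09 then 133 ± 5.31 CPM in LP104-17, and 279.8 ± 28.8 then 182 ± 13.1 CPM in LP118. It fell in LP085-Vc and LP118 and rose in LP104-17 (-0.39 ± 0.09, -0.62 ± 0.08 and 1.16 ± 0.09). NOG1, a GTPase of nuclear 60S assembly, did the same (-1.76 ± 0.12, -0.59 ± 0.10 and 0.39 ± 0.10). HAS1, an RNA helicase, fell in LP085-Vc and LP118 (-3.53 ± 0.13 and -0.96 ± 0.09) and was not called in LP104-17 (-0.18 ± 0.09, adjusted p = 0.0809). At 6 h all 42 were higher in LP118 than in LP085-Vc, with a median of 2.67, beside 32.2% of all genes.

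Dedicated chaperones and importers protect new large subunit proteins, and some carry them to the nucleus. All 7 genes of that list were higher in LP118 than in LP085-Vc at 6 h, beside 32.2% of all genes. RRB1, the chaperone of RPL3, was higher by 2.36 ± 0.09, SYO1, which carries RPL5 with RPL11, by 3.53 ± 0.13, and SQT1, the chaperone of RPL10, by 2.87 ± 0.13. Over time 4 of the 7 fell and 0 rose in LP085-Vc (38.3% of all genes lower, 37.9% higher). In LP104-17 4 rose and 2 fell (35.2% higher, 35.7% lower), and in LP118 7 fell (30.5% lower). RRB1 fell in LP085-Vc and LP118 (-1.75 ± 0.10 and -0.59 ± 0.09) and was not called in LP104-17 (0.18 ± 0.09, adjusted p = 0.0798). In LP104-17 SYO1 rose (0.69 ± 0.13) and SQT1 fell (-0.66 ± 0.12); both fell in LP085-Vc and LP118.

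Of the 15 regulators, 5 were higher and 5 lower over time in LP085-Vc (37.9% of all genes higher, 38.3% lower), 6 higher and 4 lower in LP104-17 (35.2% and 35.7%), and 4 higher and 3 lower in LP118 (26.6% and 30.5%), so these counts say nothing particular to the list. IFH1, the coactivator at ribosomal protein genes, read 52.5 ± 3.02 then 34.8 ± 5.07 CPM in LP085-Vc, 66.0 ± 2.97 then 101 ± 10.8 CPM in LP104-17, and 162 ± 16.1 then 149 ± 16.1 CPM in LP118. It was 1.63 ± 0.11 higher in LP118 than in LP085-Vc at 6 h. Over time it fell in LP085-Vc (-0.59 ± 0.12), rose in LP104-17 (0.61 ± 0.11) and was not called in LP118 (-0.12 ± 0.11, adjusted p = 0.363). CRF1, a corepressor that competes with Ifh1 at these genes, rose in all 3 strains (2.91 ± 0.10, 2.11 ± 0.10 and 0.76 ± 0.10). TOD6, a repressor of ribosome biogenesis genes, rose in LP085-Vc and LP104-17 (2.55 ± 0.15 and 2.64 ± 0.13), and at 6 h it was 4.40 ± 0.14 higher in LP118 than in LP085-Vc.

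**Figure D5:**
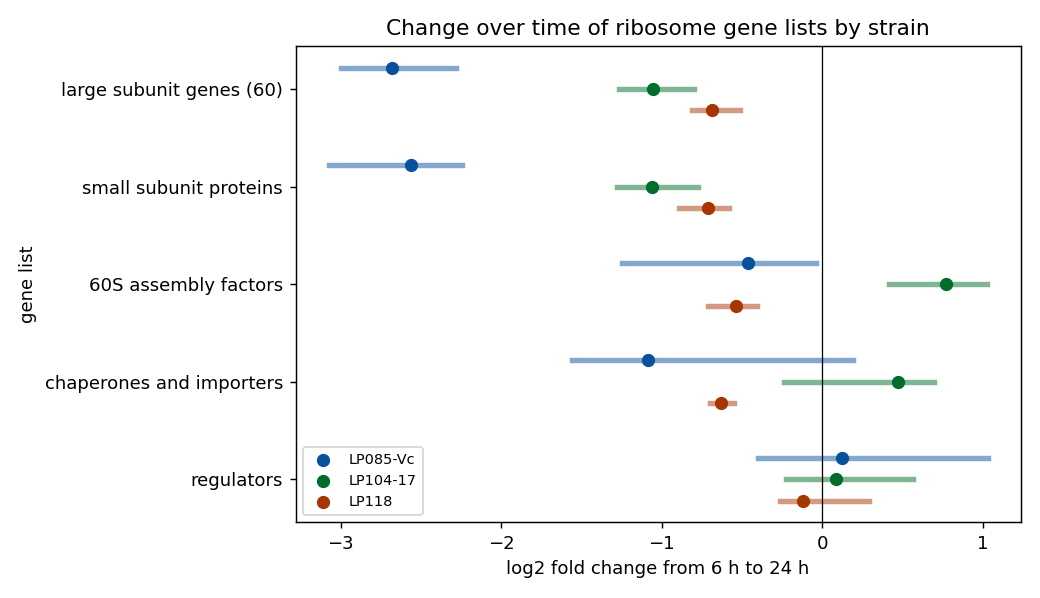
Median log2 fold change from 6 h to 24 h (points) and middle 50% of genes (lines) for 5 gene lists, by strain. Large and small subunit genes have their lowest median in LP085-Vc and their highest in LP118, whereas 60S assembly factors have a median of 0.77 in LP104-17 and of -0.47 and -0.54 in LP085-Vc and LP118.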

How the data were processed

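Each of 18 libraries came with a table of 6600 genes. The counts are raw and whole, with no normalization by the authors, per the file headers. FPKM was computed by the authors, per the file headers, and follows from count, listed length and a library denominator. The submitters' processing notes name Bowtie2 2.2.5 and build R64. Counting tool, strand use and handling of reads with several matches: not given in the sources used here.

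A quasi-likelihood model of edgeR 4.0.16 (R 4.3.3) was fitted to all libraries with a mean per group, TMM scaling, 12 residual degrees of freedom, a prior count of 0.125 and the filterByExpr filter (count 10, total 15). Two-sided p-values were adjusted by Benjamini-Hochberg over the 6131 tested genes within each of 12 comparisons, at a threshold of 0.05; values after ± are standard errors for fold changes. The biological coefficient of variation was 11.2%, and depth (5.12 to 7.55 in units of 1e6 counts) limits rows of few counts. RefSeq R64 matched 5917 of 6600 identifiers.

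Pairs were mutual best blastp hits (BLAST 2.17.0) with at least 70% identity over 80% of the longer protein; 213 were found, and 180 tested with limma 3.58.1. Scripts were tested on simulated data. The 60 genes and all lists were chosen with earlier results of these data known. Genes given with full values were drawn by rule from the 2 highest and 2 lowest of a comparison and those called against the median. Others came from the 5 pairs with the smallest p, the unduplicated RPL3, RPL10, RPL25, RPL28 and RPL30, and up to 3 genes per list. Not every gene so chosen has its fold change and p printed for each comparison. RPL5, RPL11, RPL12B, RPL1B, RPL38 and RPL42B were added after their values were seen. One gene is counted among the 60 but not reported here by itself. Alternatives were DESeq2 1.42.0, other scalings and filters, log2(FPKM + 1), length trends removed, a replicate block and leaving out each library.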

Additional observations from a re-analysis of the deposited data

Results flagged for a closer look

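The change from 6 h to 24 h differed between strains, by a test of the difference itself, in 57 of the 60 large subunit genes for LP104-17 against LP085-Vc, all higher (17.8% of all genes higher, 15.3% lower), and in 58 for LP118 against LP085-Vc, all higher (30.5% and 29.6%). It differed in 24 for LP118 against LP104-17, 23 higher and 1 lower, where 24.5% of all genes were called higher and 25.3% lower; the total called is below that of all genes. RPL7B fell in LP085-Vc and rose in LP104-17 and in LP118. The difference in its log2 change was 2.58 ± 0.44, adjusted p = 1.62e-04 for LP104-17 against LP085-Vc and 2.99 ± 0.43, adjusted p = 7.05e-06 for LP118 against LP085-Vc (edgeR quasi-likelihood test). With the overlapping row added to RPL7B these differences were 2.65 ± 0.35 and 2.59 ± 0.34.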

How the results depend on the processing

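Of the 12 counts of called genes, 11 stayed within 1.5 times under every alternative run. The exception was LP104-17 against LP085-Vc at 6 h, with 7 called genes: DESeq2 called 12, removing the trend with the length in the tables gave 26, removing the trend with spliced coding length (chosen after seeing the data) gave 33, and leaving out 1 library gave 2 to 11. It was 2 without LP085-Vc replicate 2, 4 without LP085-Vc replicate 3 or LP104-17 replicate 1, and 3 without LP104-17 replicate 3. Without LP104-17 replicate 2 it was 11, and the cause was not tested. Of all genes, 11.5% were called beside the 7, 15% with DESeq2, and 7.88 to 19.6% with 1 library left out. With the length trends removed, in the order above, 16.1 and 16.6% of all genes were called. Leaving out 1 library gave 44 to 53 for LP118 over time, 16 to 27 for the time change of LP118 against LP104-17 and 18 to 21 pairs. As a share of summed FPKM, the 60 genes held 2.94, 3.67 and 6.94% at 6 h and 0.404, 1.63 and 4.82% at 24 h in LP085-Vc, LP104-17 and LP118, and the 50 genes with under 50% of windows repeated held 5.18% of counts in LP118 at 6 h and 0.310% in LP085-Vc at 24 h.

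The sign of some values changed, none of them called in the count test. RPL7B in LP104-17 against LP085-Vc at 6 h was 0.23 with the overlapping row added (chosen after seeing the data) and ran from -0.37 to 0.14 with 1 library left out. RPL15B in LP118 against LP104-17 at 24 h was -0.018 with the spliced length trend removed, and ran from -0.13 to 0.13 with 1 library left out. RPL14B over time in LP104-17 was -0.0021 with DESeq2 and -0.0043 and -0.11 without LP104-17 replicate 1 at 6 h or replicate 2 at 24 h, and its time change in LP118 against LP085-Vc was 0.12 on log2(FPKM + 1) and ran from -0.31 to 0.016 with 1 library left out. RPL22A over time in LP118 was 0.85 ± 0.59 in its own row (adjusted p = 0.228) and -0.45 with the overlapping row added. The copy ratio of RPL14 over time in LP118 ran from -0.15 to 0.033, and that of RPL13 over time in LP104-17 from -0.066 to 0.042, with 1 library left out. On log2(FPKM + 1) the median of all genes lay between -0.11 and 0.24 in the 12 comparisons, and LP118 over time then had 42 genes lower and 3 higher. RPL15B, called in no comparison of the count test, was called there in 5 of the 8 recomputed for it: LP104-17 against LP085-Vc (0.27) and LP118 against LP085-Vc (0.33) at 24 h, LP118 against LP104-17 at 6 h (-0.27), LP085-Vc over time (-0.27) and the time change of LP118 against LP085-Vc (0.55).

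The labels give the groups the same replicate numbers. Deviations of same-numbered libraries from their group mean correlated above 0.1 in 10 of 45 pairs of libraries (from -0.377 to 0.646). Between LP085-Vc and LP104-17 at 6 h the values were 0.434, 0.646 and -0.318 for replicates 1, 2 and 3. With 3 libraries per group this cannot decide whether the numbers pair the samples. With a replicate block, 7 genes were called for LP104-17 against LP085-Vc at 6 h, 59 for LP085-Vc over time and 19 pairs, and no count moved by more than 1 gene or pair.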
